A study of Arabidopsis thaliana with 12 samples.

Results

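The RAN genes of *Arabidopsis* encode small GTPases, and the annotation holds 4 of them among 27444 protein-coding genes. They are *RAN1* (*AT5G20010*), *RAN2* (*AT5G20020*), *RAN3* (*AT5G55190*) and *RAN4* (*AT5G55080*). The family was chosen by a value of these data, the gain of accessibility at the transcription end site (TES) of *RAN3*, so that value and the counts of family members are a description and were not tested. Accessibility was measured by ATAC-seq, in which the transposase Tn5 inserts adapters into DNA that is not covered by nucleosomes. The comparison was of *h3.3ko* mature seeds (2 libraries) with Col mature seeds (2 libraries). *h3.3ko* lacks the histone variant H3.3 through mutations in *htr4* and *htr5* made with CRISPR-Cas9 and a T-DNA insertion in *htr8*. The mutant seeds segregated from plants heterozygous for a *pHTR5::HTR5* rescue transgene and were picked as seeds without the mCherry signal of that construct. Col is the wild-type accession. Seeds of both genotypes had been stored for 3 months, and nuclei were sorted before tagmentation. The tissue label could not be checked against marker genes, since the lists hold changed regions and no expression.

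The data analysed here are 3436 regions with increased and 3278 regions with decreased accessibility in *h3.3ko*. Each has one deposited log2 fold change, which the authors computed for *h3.3ko* relative to Col. No library has a value of its own, so the spread between replicates and the reads behind each value cannot be read from them, and no fold change below has an error; read numbers per library were not used here. A region is listed where the change was more than 2-fold with an adjusted *P* below 0.05. A gene with no listed region may therefore hold a smaller change or no peak, and its accessibility is not known from these lists. A gene window was the gene body with 1 kb upstream of the transcription start site (TSS) and 500 bp past the TES.

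RAN cycles between a GTP-bound form in the nucleus and a GDP-bound form in the cytoplasm, and this difference gives nuclear transport its direction. Importins carry proteins into the nucleus and release them on binding RAN-GTP, whereas exportins bind their cargo together with RAN-GTP and release it when the GTP is hydrolysed outside. RAN also acts in spindle assembly and in rebuilding the nuclear envelope after mitosis. H3.3 is the histone H3 variant that is placed in chromatin independently of DNA replication.

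An increased region lay in the windows of 3 of the 4 RAN genes, and a decreased region in 0 of 4. Of all protein-coding genes, 18.1% had an increased region and 15.8% a decreased region in the same window. The 3 genes shared 2 regions: *RAN3* had its own, whereas *RAN1* and *RAN2* had the same region, which lies at the end of *RAN1* and upstream of *RAN2*. *RAN4* had no listed region in its window. The TES itself lay inside an increased region in 2 of the 4 RAN genes, *RAN1* and *RAN3*, and in 6.63% of protein-coding genes. Since the *RAN3* region chose the family, nothing is read from these shares.

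**Figure D1:**
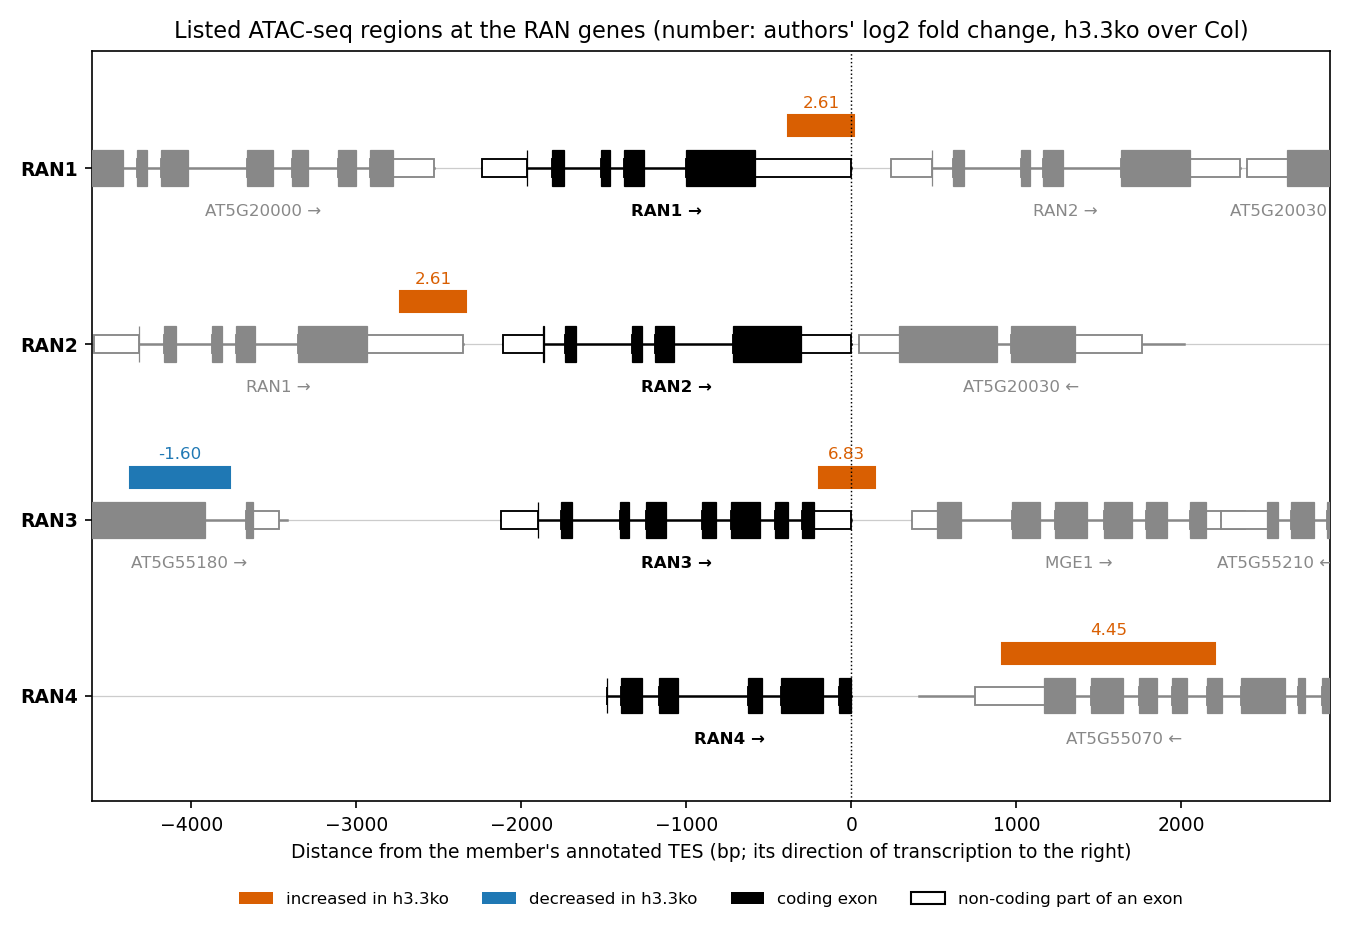
Map of the RAN genes with each gene aligned at its annotated TES (0 bp, dotted line) and transcribed to the right, one row per gene, with neighbouring genes in grey. Orange bars are increased and blue bars decreased regions with the authors' log2 fold change (positive where higher in *h3.3ko*); bars of 6.83 at *RAN3* and 2.61 at *RAN1* cross the TES, and the nearest bar to *RAN4*, of 4.45, lies past its end in *AT5G55070*.

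*RAN3* held the second largest gain of the whole increased list, with a deposited log2 fold change of 6.83, or 114-fold higher accessibility in *h3.3ko* than in Col. *RAN3* lies on the forward strand of chromosome 5 from 22392063 to 22394185 (TAIR10.1) and has 8 exons. The increased region runs from 22393988 to 22394329 and is 342 bp wide. It starts 197 bp before the TES and ends 144 bp past it, so that 198 bp lie in the 3′ untranslated region and 144 bp between genes. None of its bases lie in coding sequence. The 3′ untranslated region of *RAN3* is 228 bp long, and the increased region left only its first bases uncovered.

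The next gene on the same strand is *MGE1* (*AT5G55200*), which encodes a GrpE co-chaperone of mitochondrial Hsp70 and starts 364 bp after *RAN3* ends. The region ends 221 bp before the *MGE1* TSS, and it therefore counts for the upstream window of *MGE1* as well. The first 300 bp between the genes are printed because they hold the part of the region that lies outside *RAN3* (chr5:22394186-22394485, forward strand, TAIR10.1). Capitals mark the 144 bases inside the increased region.
RAN3 to MGE1: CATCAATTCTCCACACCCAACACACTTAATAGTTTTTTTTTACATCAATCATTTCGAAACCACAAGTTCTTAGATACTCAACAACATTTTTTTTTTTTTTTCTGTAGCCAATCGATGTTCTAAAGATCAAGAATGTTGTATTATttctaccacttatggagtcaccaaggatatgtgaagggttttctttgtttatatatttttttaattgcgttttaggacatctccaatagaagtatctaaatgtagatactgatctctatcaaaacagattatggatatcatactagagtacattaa
The capital part has a GC content of 29.2% and holds runs of 15 and 9 T. The whole region had a GC content of 31.6%, against a median of 39.2% over the increased list, and 2.91% of increased regions had a lower one.

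The regions next to *RAN3* in the ranking all lay at other kinds of gene. Rank 1 was a region of 315 bp with a log2 fold change of 7.06 inside *PP5.2* (*AT2G42810*), which encodes protein phosphatase 5. Rank 3 was a region of 52 bp with 6.12 in *SK32* (*AT4G00720*), a GSK3/SHAGGY-like kinase gene, and rank 4 a region of 476 bp with 6.02 in *AT1G21630*. Rank 5 was a region of 248 bp with 5.77 in *FUS6* (*AT3G61140*), a subunit gene of the COP9 signalosome. The list as a whole had a median log2 fold change of 2.97 and quartiles of 2.39 and 3.54, so the first ranks stand well above most increased regions.

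These top regions were also narrow. The 10 regions with the largest fold change had a median width of 377.5 bp, against 750 bp over all 3436 increased regions, and 10.4% of increased regions were narrower than the one at *RAN3*. Over the whole list, width and log2 fold change were hardly related across regions (Spearman's rho = -0.03, 3436 regions). The authors' fold change is a ratio of signals of unknown size. How many reads the narrow regions held in Col is not known, and its part in these values was not tested.

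**Figure D2:**
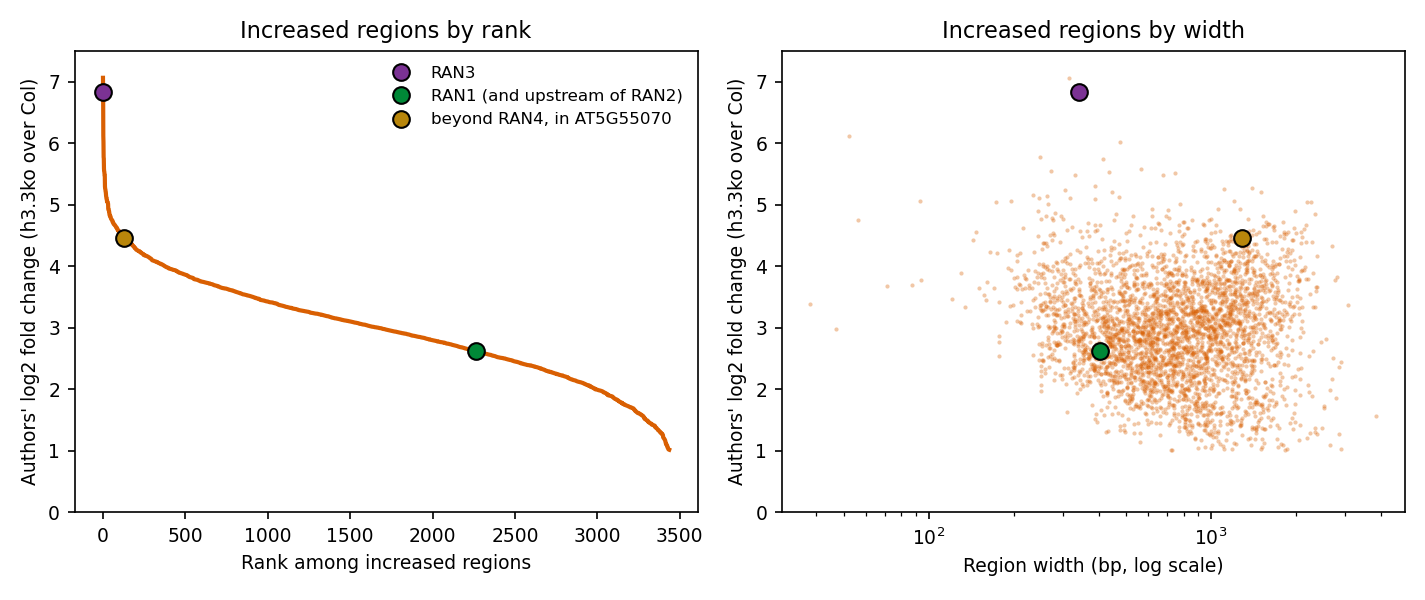
Authors' log2 fold change (positive where higher in *h3.3ko*) of the 3436 increased regions, by rank (left) and by width in bp on a log scale (right). The region at *RAN3* stands at rank 2 with 6.83, the region of *RAN1* and *RAN2* at rank 2265 with 2.61, and the region beyond *RAN4* at rank 130 with 4.45.

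Of all 3436 increased regions, 1418 (41.3%) covered the TES of a protein-coding gene. These had a median log2 fold change of 2.84 and a median width of 957.5 bp, and the *RAN3* region had the highest value among them. Like the *RAN3* region, 417 of them (29.4%) also lay in the 1 kb before the TSS of the next gene on the same strand. Of the 10 largest gains, 2 covered a TES.

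*RAN1* and *RAN2* lie head to tail on the forward strand of chromosome 5, within 4.59 kb. *RAN1* runs from 6760094 to 6762330 and *RAN2* from 6762569 to 6764683, with 238 bp between them, and each has 5 exons. Their common increased region runs from 6761946 to 6762348, is 403 bp wide and had a deposited log2 fold change of 2.61, or 6.12-fold. This is below the list's median, at rank 2265 of 3436. The region starts 384 bp before the *RAN1* TES and ends 18 bp past it, with 385 bp in the 3′ untranslated region of *RAN1*, which is 583 bp long. It touches no base of the *RAN2* gene and ends 221 bp before the *RAN2* TSS, as far as the *RAN3* region ends before the *MGE1* TSS. With the gene body alone as the window, *RAN2* had no listed region. Its own TES faces *AT5G20030* on the opposite strand across a gap of 43 bp, and no listed region lay there.

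The whole stretch between *RAN1* and *RAN2* is printed because the increased region ends within it and it is the upstream sequence of *RAN2* (chr5:6762331-6762568, forward strand, TAIR10.1). Capitals mark the 18 bases inside the increased region.
RAN1 to RAN2: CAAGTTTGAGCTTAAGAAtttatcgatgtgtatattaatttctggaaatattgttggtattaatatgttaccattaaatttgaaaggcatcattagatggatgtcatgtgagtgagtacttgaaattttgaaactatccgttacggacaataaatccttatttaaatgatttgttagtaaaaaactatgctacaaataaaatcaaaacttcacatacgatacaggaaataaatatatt
This stretch had a GC content of 26.5%, and the region itself 39.7%, close to the list's median. The upstream sequences of *RAN1* and *RAN2* shared a block of similar sequence. It starts 176 bp before the TSS of *RAN1* and 115 bp before the TSS of *RAN2*, outside the increased region, and 52 of 66 alignment columns (78.8%) were identical. Both copies are printed to show what the tandem genes share, with capitals marking identical bases (chr5:6759918-6759983 and chr5:6762454-6762513, forward strand, TAIR10.1).
RAN1 block: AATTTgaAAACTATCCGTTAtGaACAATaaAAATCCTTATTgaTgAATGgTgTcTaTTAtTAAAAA
RAN2 block: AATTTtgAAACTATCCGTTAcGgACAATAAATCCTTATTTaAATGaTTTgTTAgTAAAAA
The best local match of the *RAN3* upstream sequence to that of *RAN1* had 23 columns (82.6% identical), and to that of *RAN2* 18 columns (88.9%). How long such matches are between unrelated upstream sequences was not tested.

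*RAN4* lies on the reverse strand of chromosome 5 from 22351576 to 22353058, 39.0 kb from *RAN3*. Its gene model has 6 exons and no untranslated regions. Its annotated TSS and TES are therefore the ends of the coding sequence. Distances to them are uncertain by the length of the missing untranslated regions. The nearest increased region began 914 bp past the annotated TES and ran from 22349370 to 22350662. It was 1293 bp wide with a log2 fold change of 4.45, at rank 130. This region lies wholly inside *AT5G55070*, a dihydrolipoamide succinyltransferase gene of the citric acid cycle that converges on *RAN4* with 407 bp between the gene ends. It entered the *RAN4* window when 1 kb past the TES was allowed. All 4 RAN genes then had an increased region, beside 5213 of 27444 protein-coding genes.

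The nearest decreased regions lay outside every RAN window. The closest, with a log2 fold change of -1.60, ran from 22389810 to 22390417 inside *AT5G55180*, a glycosyl hydrolase gene, and ended 1646 bp before the *RAN3* TSS. The others nearest to a RAN gene lay 19513 bp from *RAN4*, 20286 bp from *RAN1* and 22761 bp from *RAN2*.

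The genes differ in ways that the choice did not use. RAN1, RAN2 and RAN3 each have 221 residues and shared 210 to 213 identical residues in pairs (up to 96.4%), whereas RAN4 has 222 residues and was 65.2% to 66.5% identical to the others. *RAN1*, *RAN2* and *RAN3* are 2237, 2115 and 2123 bp long, near the median of 2078 bp over all protein-coding genes. *RAN4* is 1483 bp long, but its gene model has no untranslated regions, so its length is not comparable with theirs. Its coding length of 669 bp is close to the 666 bp of each of the others. The 3 genes with a region in their window are thus the 3 that encode nearly the same protein, but *RAN1* and *RAN2* share a single region. That region was not aligned to the one at *RAN3*. The set also depends on the window, since *RAN2* drops out with the gene body alone and *RAN4* joins with 1 kb past the TES. All 312 runs of 31 bases in the *RAN3* region and all 373 in the *RAN1* region occur once in the 5 nuclear chromosomes, on either strand. In the gene bodies, 94 of 2207 such runs of *RAN1* and 99 of 2085 of *RAN2* occur more than once, and 0 of 2093 of *RAN3*.

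The promoters of the 4 genes, taken as 250 bp before the TSS, were searched for exact matches on both strands. None held the telo-box AAACCCTAA, the site II element TGGGCC or TGGGCT, or the G-box CACGTG, which 2.62%, 19.2% and 6.49% of all protein-coding promoters of this length held. The word of the TATA box, TATAAA, was found in 47.3% of promoters. It occurred 3 times before *RAN3*, starting 180, 108 and 46 bp before the TSS, once before *RAN1* at 104 bp, and at 140 and 90 bp before *RAN4*, and it had no match before *RAN2*. No listed region overlapped the matches. The *RAN4* model has no 5′ untranslated region, so its 250 bp end at the start of the coding sequence. They need not be its promoter, and its matches, absences and distances are not comparable with those of the other RAN genes.

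Among the 5 protein-coding neighbours on each side, 30 genes in all, 8 (26.7%) had an increased and 4 (13.3%) a decreased region, against 18.1% and 15.8% of all protein-coding genes. The 8 rest on 7 regions and include *MGE1*, which counts only through the *RAN3* region that chose the family, so nothing is read from this share. With 10 neighbours on each side, 9 of 54 genes (16.7%) had an increased region, so the share near the RAN genes depends on how many neighbours are taken. The *RAN1* and *RAN2* locus had the fewest, with 1 of 10 neighbours increased and 0 of 10 decreased. That neighbour was *RPT6A* (*AT5G19990*), a proteasome ATPase gene, whose region of 1222 bp had a log2 fold change of 3.74 and ended 169 bp before its TES.

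Around *RAN4*, 5 of 10 neighbours had an increased and 1 of 10 a decreased region. Besides *AT5G55070*, they were *AT5G55100* with 2.85 and *AT5G55050*, a lipase gene, with 1.71, and in each of these the region covered the TES. A region with 2.54 covered the TES of *AT5G55040*, a bromodomain gene, and lay upstream of *MYB120*. *AT5G55040* also had a decreased region of -2.38 just after its TSS.

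Around *RAN3*, 2 of 10 neighbours had an increased region and 3 of 10 a decreased region. The increased ones were *MGE1*, through the region it shares with *RAN3*, and *ATPXG2*, a peroxygenase gene, with 3.04 over its TES. The decreased ones were *AT5G55180* and the pair *AT5G55210* and *AT5G55220*, whose divergent start sites share a region of -2.32. The gain at *RAN3* thus lay between losses on both sides, at *AT5G55180* and at the *AT5G55210* and *AT5G55220* start sites.

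The partners of RAN in nuclear transport were taken from a list written by name, which may not hold every such gene. Of its 32 counted genes, 11 (34.4%) had an increased and 10 (31.2%) a decreased region, and 1 had both. The shares over all protein-coding genes were 18.1% and 15.8%. The partner genes are grouped by role below, a grouping made with the counts known, and the small counts per role are a description. These genes had a median length of 3259 bp, against 2078 bp over all protein-coding genes, and the part of length in the shares was not tested. The median log2 fold change was 2.89 over their 13 increased and -1.85 over their 10 decreased regions, against 2.98 and -1.91 over the regions in all protein-coding windows. Of the increased regions, 12 of 13 (92.3%) had their midpoint nearer to the TES than to the TSS, and 78.5% did among the regions of all protein-coding genes. Of the decreased regions, 7 of 10 (70%) had it nearer to the TSS, and 81.9% among all genes. An increased region covered the TES of 2 of the 32 genes, *KPNB1* and *NUP136*.

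The GTPase activators *RANGAP1* and *RANGAP2*, which make RAN hydrolyse GTP outside the nucleus, had no listed region, like 19202 of 27444 protein-coding genes. Of the Ran-binding proteins that assist them, *RanBP1a* (*AT1G07140*) had a decreased region of -1.18 upstream, from 820 to 203 bp before its TSS, and *RanBP1c* had none. Both NTF2 genes on the list, which encode the factor that returns RAN-GDP to the nucleus, had a decreased region, beside 15.8% of all protein-coding genes. The region was -1.52 upstream of *NTF2A* (*AT1G27310*), and -2.05 over the TES of *NTF2B* (*AT1G27970*).

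Among the 9 importin alpha genes, the adaptors that bind nuclear localisation signals, 5 had a decreased and 2 an increased region, beside all-gene shares of 15.8% and 18.1%. Their median gene length was 3424 bp, and its part in these counts was not tested. Decreased regions covered the TSS of *IMPA9* (*AT5G03070*, -2.78), *IMPA1* (*AT3G06720*, -2.54) and *IMPA6* (*AT1G02690*, -1.28). Those of *IMPA5* (*AT5G49310*, -1.86) and *IMPA8* (*AT5G52000*, -1.84) began 330 and 483 bp past the TES. Both fell outside the window when it reached only 250 bp past the TES. In that window, 8 Ran pathway genes and 4209 of 27444 protein-coding genes had a decreased region. *IMPA2* (*AT4G16143*) had an increased region of 1.88 that ended 17 bp before its TES, and *IMPA4* (*AT1G09270*) one of 2.86 that began 176 bp past its TES.

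All 3 importin beta type receptors counted from the list had increased regions, beside 18.1% of all protein-coding genes. *KPNB1* (*AT5G53480*), importin beta itself, had 3.65 inside the gene and 2.29 over its TES. *TRN1* (*AT2G16950*), transportin, had 3.01 and 2.89, and *SAD2* (*AT2G31660*) had a region of 9.83-fold at rank 1179, all inside the gene and nearer to its TES. Of 6 exportin genes counted from the list, 3 had an increased region and 0 a decreased one, beside the same 18.1% and 15.8%. *XPO1A* (*AT5G17020*), the main receptor for nuclear export signals, had the highest value of the partners, 4.84 over 2349 bp that ended 251 bp before the TES. *CAS* (*AT2G46520*), which returns importin alpha to the cytoplasm, had 3.64, and *XPO4* (*AT3G04490*) had 3.18. The median gene length was 7484 bp for the importin beta type and 7735 bp for the exportins, and its part in these counts was not tested.

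The listed proteins that hold the RAN cycle at the nuclear pore and envelope gave 8 genes. Of these, 3 had an increased and 2 a decreased region, beside the all-gene shares of 18.1% and 15.8%. *NUP136* (*AT3G10650*), a nuclear basket protein gene, had both, with 2.50 over its last part and TES and -2.59 over its TSS. *NUP50a* (*AT1G52380*) had 2.60 from 48 bp past its TES. *WIP1* (*AT4G26455*) and *WIP2* (*AT5G56210*), which anchor the RAN GTPase activators at the envelope, differed in direction, with 1.45 at the TSS of *WIP1* and -1.21 at the TSS of *WIP2*. In all, 12 of the 32 genes had no listed region, beside 19202 of 27444 protein-coding genes, and the part of gene length in this was not tested.

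**Figure D3:**
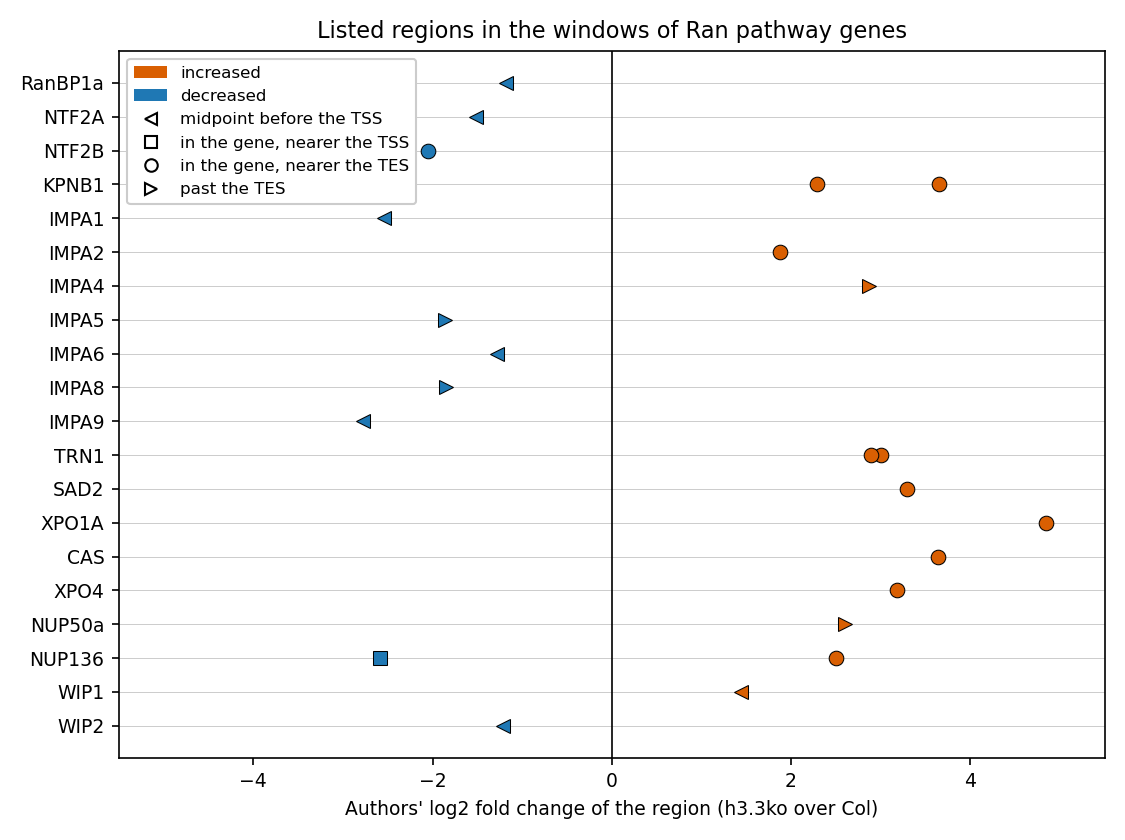
Authors' log2 fold change (positive where higher in *h3.3ko*) of each listed region in the windows of Ran pathway genes, one row per gene and one symbol per region, with orange for increased and blue for decreased regions and the symbol's shape for where its midpoint lies. *XPO1A* stands furthest to the right at 4.84 and *IMPA9* furthest to the left at -2.78.

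The other small GTPases were genes annotated by symbol or product as RAB, ROP and ARF or SAR, families that act in vesicle traffic and cell polarity. This gave 81 genes, and the annotation was taken as given. Of these, 21 (25.9%) had an increased and 16 (19.8%) a decreased region, against 18.1% and 15.8% of all protein-coding genes. Their increased regions had log2 fold changes between 1.98 and 3.78 with a median of 2.80. The region of *RAN1* and *RAN2* lay within this range. That of *RAN3* lay above it, which follows from the choice of *RAN3* for its large gain. The TES was inside an increased region in 10 of the 81 genes, against 6.63% of all. Of their 23 increased gene and region pairs, 20 (87%) had the midpoint nearer to the TES, against 78.5% over all genes. Among the RAN genes 2 of 3 pairs did, since the region shared with *RAN1* lies before the *RAN2* TSS. The *RAN3* pair was chosen for its place at the TES. All 16 decreased pairs of the other small GTPases had the midpoint nearer to the TSS, against 81.9% over all genes.

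**Figure D4:**
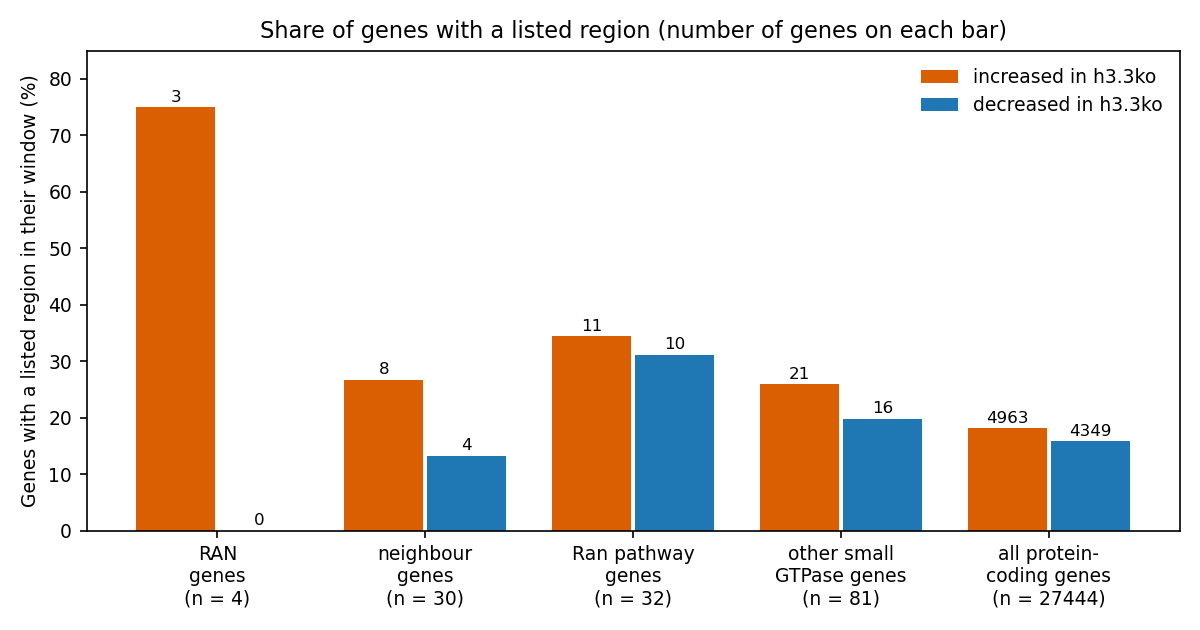
Percent of genes with an increased (orange) or decreased (blue) region in their window, with the number of genes above each bar, for the 4 RAN genes, their 30 neighbours, 32 Ran pathway genes, 81 other small GTPase genes and all 27444 protein-coding genes. The RAN bars of 3 and 0 genes describe genes chosen in this comparison, and the bars of all protein-coding genes stand at 18.1% and 15.8%. The increased bar of the neighbours includes *MGE1*, through the *RAN3* region.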

How the data were processed

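ATAC-seq libraries of *h3.3ko* and Col mature seeds (2 each) lie behind the lists, and the other 8 libraries of the series were not analysed here. Reads were trimmed by the authors (fastp 0.20.1) and aligned to TAIR10 (Bowtie2). Duplicates (Picard 2.24.0) and reads of organelles were discarded. MACS2 peaks present in both replicates were retained and combined over the genotypes. Signal scores of the combined peaks were calculated with deepTools. The test behind the adjusted *P*, any Tn5 offset shift and the handling of reads with several positions are not given in the sources used here. The deposited value is one log2 fold change per region, computed by the authors, and is printed as such without a test. Read numbers per library were not used here, and the lists hold no depth.

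Regions were joined to the TAIR10.1 annotation (RefSeq) by an overlap of at least 1 bp. Its 5 nuclear chromosomes hold every region within their lengths. Protein identity came from global alignments (BLOSUM62) and upstream blocks from local alignments with biopython 1.88. The assignment was tested on simulated regions. The RAN genes, the gene lists and the rules were chosen with earlier results of these data known. Genes named are the 4 members, genes sharing their regions, neighbours and Ran pathway genes with a listed region, and ranks 1 to 5 of the increased list. Outside this rule, *RANGAP1*, *RANGAP2*, *RanBP1c*, *AT5G20030* and the IDs left out of counts are named to account for members without a region, a gap or an omission, chosen after their values were seen. Of 35 listed Ran pathway IDs, 3 have no symbol, synonym or product that gives the listed name or a role in nuclear transport, and were left out of the counts. Roles were grouped after the counts were known. Alternatives covered the window, the overlap rule, the fold change, the gene set and the number of neighbours. Python 3.11.15, numpy 2.4.6, scipy 1.17.1 and matplotlib 3.10.9 were used.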

Additional observations from a re-analysis of the deposited data

How the results depend on the processing

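Counts were recomputed under alternative windows and rules, and 101 of 116 alternative values stayed within 1.5 times of the value in the report. The number of RAN genes with an increased region lay between 1 and 4. It was 4 with 1 kb past the TES, where 5213 of 27444 protein-coding genes had one. With the 50% of each list that had the largest fold changes it was 1, *RAN3*, in 1 region. The other counts were then 4 neighbours with an increased region, and 6 and 4 Ran pathway genes with an increased and a decreased region. They were 7 and 8 for other small GTPases, and 2488 and 2338 for protein-coding genes. These lists are shorter by construction. With 2 kb upstream, 1 RAN gene, *RAN3*, had a decreased region, and 1 decreased region lay in the RAN windows. With the gene body only, 6 Ran pathway genes and 2893 protein-coding genes had a decreased region. With 3 neighbours on each side, 5 of 18 (27.8%) had an increased region. With 10 on each side, 9 of 54 (16.7%) had an increased and 7 of 54 (13%) a decreased one. The increased counts include *MGE1*, through the *RAN3* region. The 3 IDs left out of the Ran pathway were counted in an alternative added after seeing the data. Then 14 of 35 Ran pathway genes had an increased and 10 a decreased region, beside 18.1% and 15.8% of all protein-coding genes. No paired analysis was possible because the lists hold no value per library, and no library could be left out for the same reason. Every count rests on the authors' thresholds, and changes below them are not visible here. Depth limits which regions could be listed, and read numbers were not used here.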

Other observations

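The 3 IDs left out of the Ran pathway counts each had an increased region in their window and none a decreased one. Of all protein-coding genes, 18.1% had an increased and 15.8% a decreased region, and the part of gene length was not tested. The deposited log2 fold changes were 4.54 in *AT5G19820*, 2.83 at the end of *AT5G06120* and 1.73 over the TES of *AT2G30060*.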
